A study of Mus musculus with 8 samples.

Results

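Aminoacyl-tRNA synthetase genes were followed through 8 RNA-seq libraries of B16-F10 mouse melanoma cells. The members were the 36 rows, of 46477 in the deposited table, whose gene symbol names an enzyme of this family. They comprised 20 symbols of cytosolic enzymes and 16 symbols ending in 2, which name mitochondrial enzymes. A symbol is an imperfect guide to the compartment, because in mammals the products of Gars and Kars serve both.

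Aminoacyl-tRNA synthetases join each amino acid to its tRNA, which supplies the ribosome with the building blocks of protein. The cytosolic enzymes serve translation of nuclear genes, and the mitochondrial enzymes serve the few proteins encoded by mitochondrial DNA. In mammalian cells, lack of amino acids and stress of the endoplasmic reticulum act through the transcription factor ATF4, which is known to raise many cytosolic synthetase genes together with amino acid transporters and biosynthetic enzymes.

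The melanoma cells were plated on matrix that smooth muscle cells (SMCs) had laid down and were lysed for RNA 24 hours later. The SMCs had been given siRNA for 72 hours and 1 of 2 media for another 72 hours, and were then lysed and washed off. The siRNA therefore acted on the cells that made the matrix and not on the cells sequenced. The 8 conditions had 1 library each: TCM with siKLF4-siFN, siFN, siKLF4 or siNT, and SFM with siKLF4-siFN, siFN, siKLF4 or siNT. TCM is read here as the B16-F10 tumor conditioned media named in the series title, and SFM is not spelled out in the labels. KLF4 is the symbol of a transcription factor, FN commonly abbreviates the matrix protein fibronectin, and siNT is used as the baseline of the siRNA treatments. All libraries come from 1 cell line on matrix without living SMCs.

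Approximate depths, worked out from the steps between low values, ran between 11600000 and 23000000 reads. Of 7 melanoma markers, 6 averaged at least 1 FPKM (read fragments per kilobase of transcript, normalised to sequencing depth), and the 7 together summed to 351 to 554 FPKM. Of 10 smooth muscle markers, 2 reached that level, the list summed to 2.49 to 3.90 FPKM, and Acta2 was listed at 0 in every library. In RNA of whole cultures, fewer cells of a type and less RNA per cell cannot be told apart. The TCM siKLF4-siFN and TCM siFN libraries were the closest of all 28 pairs, with a standard deviation of 0.17 in their log2 difference, against 0.23 for the next pair and 0.64 for the widest. With the approximate reads, the median chi-square of that pair was 0.746 times what counting alone gives, against 1.27 times or more in each of the other pairs. These 2 libraries thus differed by less than counting noise although their labels differ and 0% of tested genes had identical values in both. They were kept apart in the fits, and each comparison with calls is also given with their mean entered as 1 sample.

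The levels of the members set them apart by compartment. The cytosolic genes had a median of 6.84 FPKM over their 8-library means, against 0.597 FPKM for the mitochondrial genes and 3.33 FPKM for all 6917 genes with a mean of at least 1 FPKM, the genes that were tested. All 20 cytosolic genes passed that filter. Of the 16 mitochondrial genes, 5 passed (Iars2, Vars2, Yars2, Mars2 and Hars2), and 4 more averaged at least 0.5 FPKM (Tars2, Pars2, Lars2 and Aars2). The remaining 7 (Rars2, Sars2, Cars2, Ears2, Wars2, Nars2 and Fars2) had 0.0306 to 0.659 FPKM in single libraries and were not described further. In each of the 13 pairs of members whose symbols differ only by the final 2, the cytosolic gene was higher in 8 of 8 libraries. The ratio of mean FPKM in these pairs was lowest for tyrosine at 2.48 and highest for asparagine at 393.

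Sars, which charges serine, was the highest member with a mean of 37.4 FPKM. It had 34.9, 35.7, 40.1 and 45.5 FPKM in the TCM siKLF4-siFN, siFN, siKLF4 and siNT libraries, and 51.0, 34.6, 29.3 and 27.9 FPKM in the SFM libraries with the same siRNAs. Farsb, the beta subunit of the phenylalanine enzyme, was the lowest cytosolic member and had 1.11, 1.04, 1.14 and 1.40 FPKM on TCM matrix and 1.64, 1.67, 1.30 and 1.23 FPKM on SFM matrix. Both genes were higher in the siFN libraries than in the others on SFM matrix, and lower in them on TCM matrix. Iars2, the mitochondrial isoleucine enzyme and highest mitochondrial member, had 2.14, 2.15, 2.10 and 2.21 FPKM on TCM matrix and 1.99, 1.89, 2.11 and 2.09 FPKM on SFM matrix. Its 8 values lay close together. Mars overlaps Ddit3, Aars overlaps Exosc6, and Hars and Hars2 overlap each other in the annotation. Farsb overlaps Sgpp2, Iars2 overlaps Rab3gap2 and Yars overlaps C77080. Reads of all these genes may therefore be shared.

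**Figure D1:**
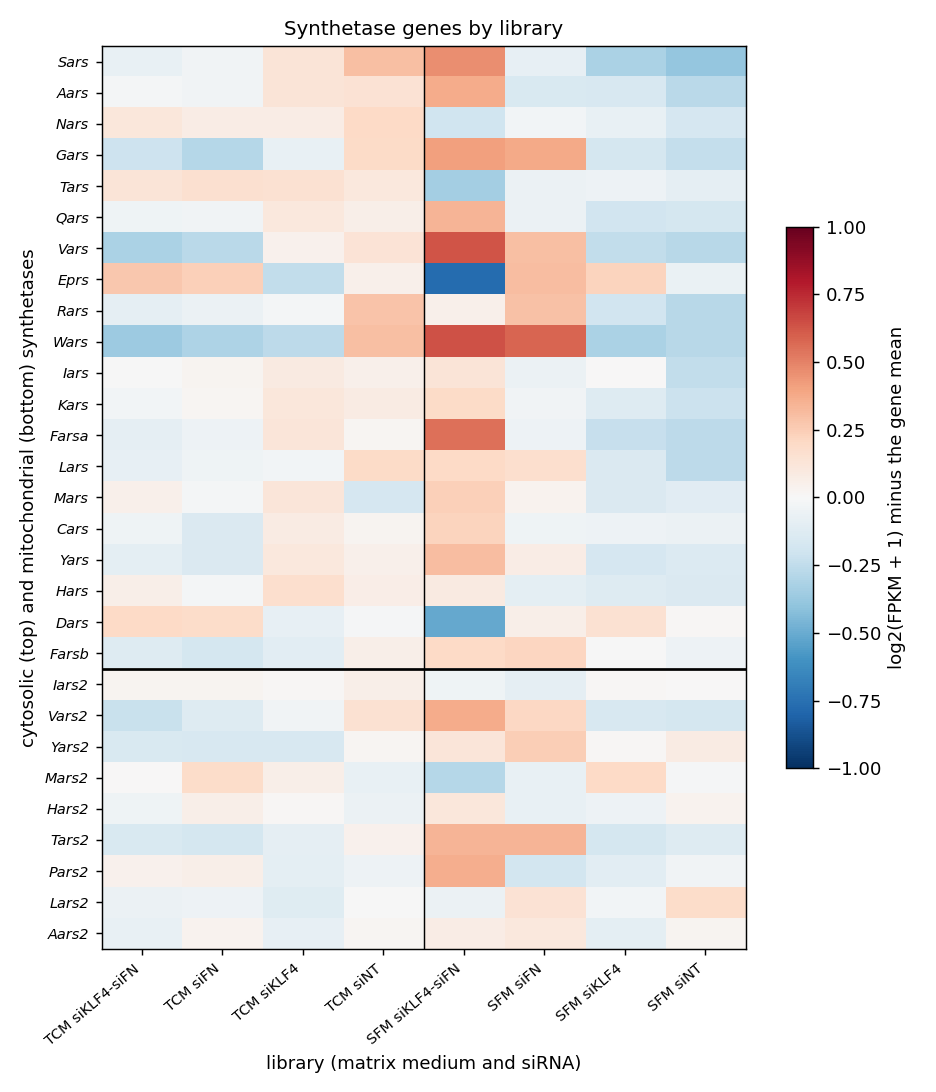
Level of the 29 members with a mean of at least 0.5 FPKM in each library, as log2(FPKM + 1) minus the gene's mean over 8 libraries, with cytosolic genes above the black line and mitochondrial genes below it. Most cytosolic genes are red in SFM siKLF4-siFN, where 13 of 20 had their highest value. The 4 with their lowest value there, Eprs, Dars, Tars and Nars, are blue.

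Promoters of the members are shown because most cytosolic members differed in the same direction and because ATF4 with its CEBP partners is known to bind sites of the form TGATGNAA. RefSeq promoter entries of build GRCm38.p6 matched 27 of the 36 members, and those without one were Cars, Hars, Lars, Nars, Rars, Vars, Wars, Hars2 and Pars2. On either strand of the entries, which run 250 bases before to 50 bases after the annotated start, the stricter letters TGATGCAA stood in 4 of the 27 (Aars, Iars, Tars and Yars, for alanine, isoleucine, threonine and tyrosine), against 0.895% of 32851 promoter entries. The letters TGATGNAA, which include the stricter ones, stood in those 4 and in Gars, against 3.97% of all entries. None of the 14 mitochondrial members with an entry held either. The windows below run 125 bases before to 25 bases after the annotated start, 5′ to 3′ on the gene's strand, with TGATGNAA or its reverse complement in capitals; Vars2 is shown as a mitochondrial member that was called in a comparison and held neither. They lie at chr6:55037876-55038025 (plus strand), chr8:111033717-111033866 (plus strand), chr13:49682005-49682154 (plus strand), chr15:11399634-11399783 (minus strand), chr4:129189778-129189927 (plus strand) and chr17:35667568-35667717 (minus strand).
Gars: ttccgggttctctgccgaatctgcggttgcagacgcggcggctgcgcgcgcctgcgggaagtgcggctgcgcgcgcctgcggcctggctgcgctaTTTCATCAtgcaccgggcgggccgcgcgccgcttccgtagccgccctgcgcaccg
Aars: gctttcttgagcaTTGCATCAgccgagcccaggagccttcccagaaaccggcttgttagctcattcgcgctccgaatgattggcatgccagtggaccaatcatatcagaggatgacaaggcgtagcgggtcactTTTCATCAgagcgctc
Iars: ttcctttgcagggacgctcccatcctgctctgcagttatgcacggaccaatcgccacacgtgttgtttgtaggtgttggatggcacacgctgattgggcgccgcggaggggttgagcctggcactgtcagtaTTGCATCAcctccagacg
Tars: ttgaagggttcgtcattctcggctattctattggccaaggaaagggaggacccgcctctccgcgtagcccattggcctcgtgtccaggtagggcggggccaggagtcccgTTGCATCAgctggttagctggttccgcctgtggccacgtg
Yars: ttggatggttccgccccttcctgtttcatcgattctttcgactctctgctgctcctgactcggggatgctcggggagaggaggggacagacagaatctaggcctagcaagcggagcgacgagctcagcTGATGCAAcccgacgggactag
Vars2: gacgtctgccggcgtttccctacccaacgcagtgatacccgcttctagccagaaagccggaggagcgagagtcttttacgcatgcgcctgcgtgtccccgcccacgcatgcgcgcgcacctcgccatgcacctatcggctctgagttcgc
A match describes letters in the window and not binding. Of these 6 genes, Gars and Vars2 were called in a comparison described below, and Aars, Iars, Tars and Yars in none of the fits of all 8 libraries.

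The first question was whether siFN changed the members alike on both matrices. It was chosen because earlier results of these data put most variance on this contrast. Its p-values thus come from the same libraries that led to the choice. Most members had estimates of opposite sign on the 2 matrices, and 2 passed the test of that difference: Wars and Vars, which charge tryptophan and valine. Both were high in the siFN libraries on SFM matrix and low in the siFN libraries on TCM matrix. Wars was nearly as low with siKLF4 alone on TCM matrix (5.37 FPKM), where TCM siNT had 8.41 FPKM. The comparison used limma on log2(FPKM + 1) with terms for medium, siKLF4, siFN and medium by siFN. Libraries alike in medium and siFN but not in siKLF4 stood in for repeats, since no condition was repeated. The fit takes the siKLF4 difference to be the same on both matrices and with or without siFN. The p-values therefore reflect the scatter among the 8 libraries alone, and no label says that these were separate cultures.

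Wars had 4.93, 5.17, 5.37 and 8.41 FPKM in the TCM siKLF4-siFN, siFN, siKLF4 and siNT libraries. On SFM matrix it had 10.8, 10.4, 5.14 and 5.28 FPKM in the same order. The SFM libraries with siFN and TCM siNT stood above the other 5, and the libraries with siFN did not overlap those without it on either matrix. On TCM matrix that gap lay between 5.17 FPKM in TCM siFN and 5.37 FPKM in TCM siKLF4. The siFN difference was 0.91 ± 0.18 (SE) on SFM matrix (limma adjusted p = 0.0408) and -0.36 ± 0.18 on TCM matrix (adjusted p = 0.738), on the log2(FPKM + 1) scale. The interaction, which is the siFN difference on TCM matrix minus that on SFM matrix, was -1.26 ± 0.25 (adjusted p = 0.0432). The gene lies at chr12:108860030-108894174 on the minus strand of GRCm38 and overlaps Wdr25, whose reads cannot be told apart here because the strand setting is not given.

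Vars had 9.35, 9.73, 12.3 and 13.2 FPKM in the TCM libraries in that order. In the SFM libraries it had 19.0, 14.9, 9.87 and 9.65 FPKM. The siFN libraries again lay wholly above the others on SFM matrix and wholly below them on TCM matrix. The interaction was -1.11 ± 0.22 (limma adjusted p = 0.0432), with a siFN difference of 0.73 ± 0.16 on SFM matrix (adjusted p = 0.0456) and -0.38 ± 0.16 on TCM matrix (adjusted p = 0.738). Vars lies at chr17:35000987-35016322 on the plus strand, and its mitochondrial counterpart Vars2 lies 639 kb away at chr17:35655634-35667592 on the minus strand.

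**Figure D2:**
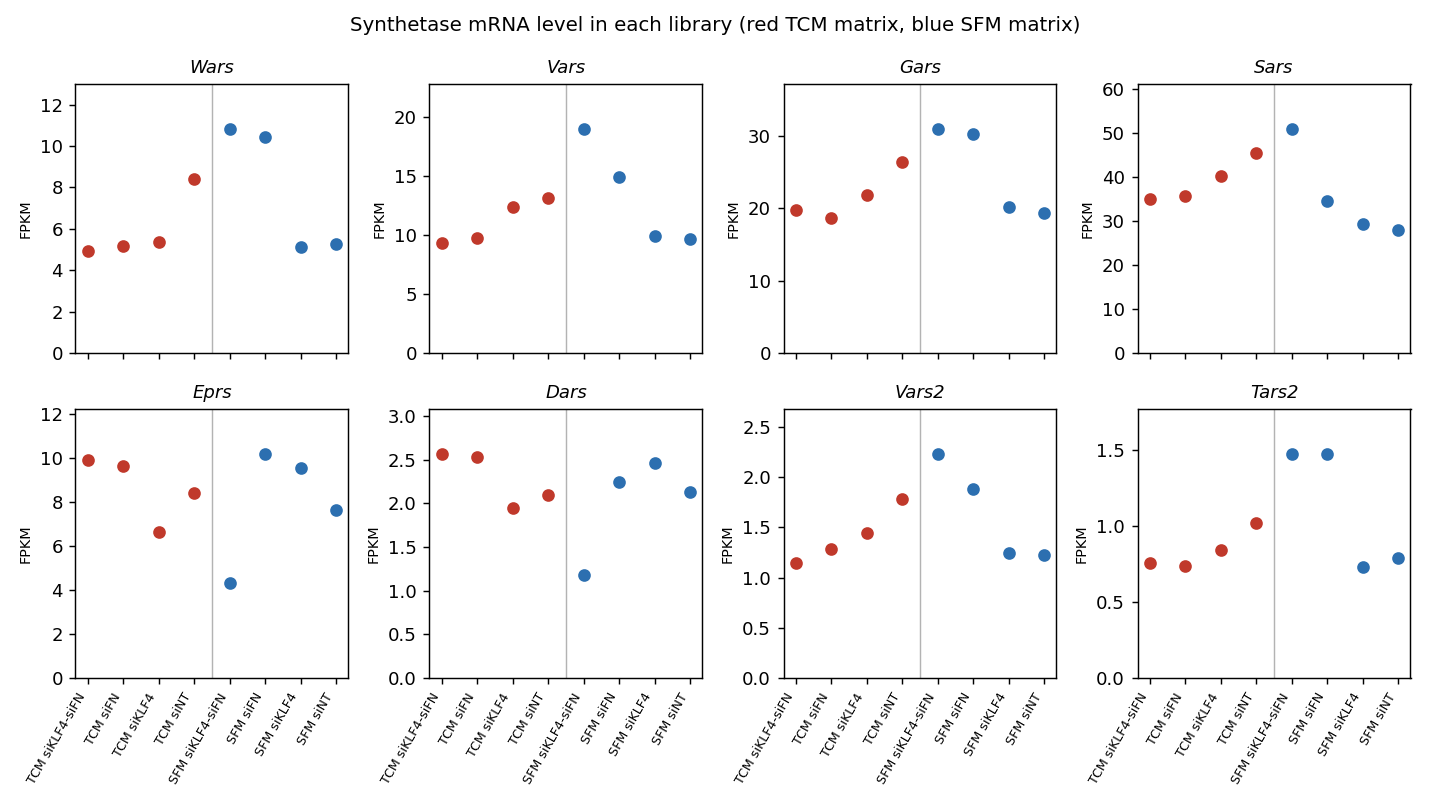
FPKM of 8 members in each library, 1 point per library, with TCM matrix in red and SFM matrix in blue; axes start at 0. Wars, Vars, Gars, Vars2 and Tars2 share a shape in which both siFN libraries are high on SFM matrix and low on TCM matrix. In Wars, TCM siKLF4 is nearly as low (5.37 FPKM). Eprs and Dars have their lowest value in SFM siKLF4-siFN (4.32 and 1.18 FPKM).

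Of the 25 members tested, these 2 were called in the interaction, both lower, where 3.34% of all tested genes were called lower and 7.17% in either direction. The estimate was below 0 for 17 of 20 cytosolic members, with a median of -0.40, against a median of -0.06 and 54.4% of genes below 0 over all tested genes. It was below 0 for 2 of 5 mitochondrial members, with a median of 0.00. With the filter at a mean of 0.5 FPKM, it was below 0 for 5 of 9 mitochondrial members. Their median was then -0.045, against -0.019 over all 9043 genes. The next members by p missed the threshold. Gars, the glycine enzyme, had -0.91 ± 0.22 (limma adjusted p = 0.0555), Vars2 had -0.69 ± 0.17 (adjusted p = 0.0597) and Yars had -0.54 ± 0.18 (adjusted p = 0.0922).

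The 2 calls depended on which libraries entered. With the 2 close TCM libraries averaged into 1 sample, 0 of 6917 genes were called by limma (1585 had an unadjusted p under 0.05), and the adjusted p was 0.130 for Wars and 0.123 for Vars. Without SFM siFN, 11 members were called, 9 lower and 2 (Dars and Eprs) higher, where 14.2% of all tested genes were called lower and 15.7% higher. Wars alone was called without TCM siKLF4, where 3.14% of genes were called lower, and no member was called when any 1 of the other 6 libraries was left out.

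Within SFM matrix, the estimate for siFN was positive for most cytosolic members, and 2 of the 25 members passed the test. These were Wars and Vars, both higher, against 3.17% of all tested genes called higher and 6.92% in either direction. Of the cytosolic members, 17 of 20 were above 0 with a median of 0.29, and the median over all tested genes was 0.01. Of the mitochondrial members, 3 of 5 were above 0 with a median of 0.03. With the filter at a mean of 0.5 FPKM, 6 of 9 mitochondrial members were above 0. Their median was then 0.13, against -0.02 over all 9043 genes. Both siFN libraries lay above both others on SFM matrix for 15 of 20 cytosolic members and 4 of the 9 mitochondrial members with a mean of at least 0.5 FPKM, where 30.6% of all tested genes did so. They lay below both others for 0 of 20 cytosolic members and for Mars2 and Iars2 among the mitochondrial ones, where 30.4% of all tested genes did so. With the 2 TCM libraries averaged, 0 genes were called by limma (1964 with an unadjusted p under 0.05), and the adjusted p was 0.0722 for Wars and 0.0765 for Vars. Without SFM siFN 10 members were called, 8 higher and 2 lower, where 11.2% of all tested genes were called higher and 15.4% lower. Wars alone was called without TCM siNT (2.91% of genes higher) or TCM siKLF4 (2.86%), and no member without any 1 of the other 5 libraries.

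Within TCM matrix, 0 of 6917 genes were called for siFN by limma, and 391 had an unadjusted p under 0.05, among the members Vars alone. Most cytosolic members lay on the low side, 16 of 20 below 0 with a median of -0.13, against a median of -0.04 over all tested genes. Both siFN libraries lay below both others for 15 of 20 cytosolic members and 2 of the 9 mitochondrial members, where 34.2% of all tested genes did so. They lay above both others for 2 cytosolic members, Dars and Eprs, and for Pars2, the mitochondrial proline enzyme, where 19.6% of all tested genes did so.

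**Figure D3:**
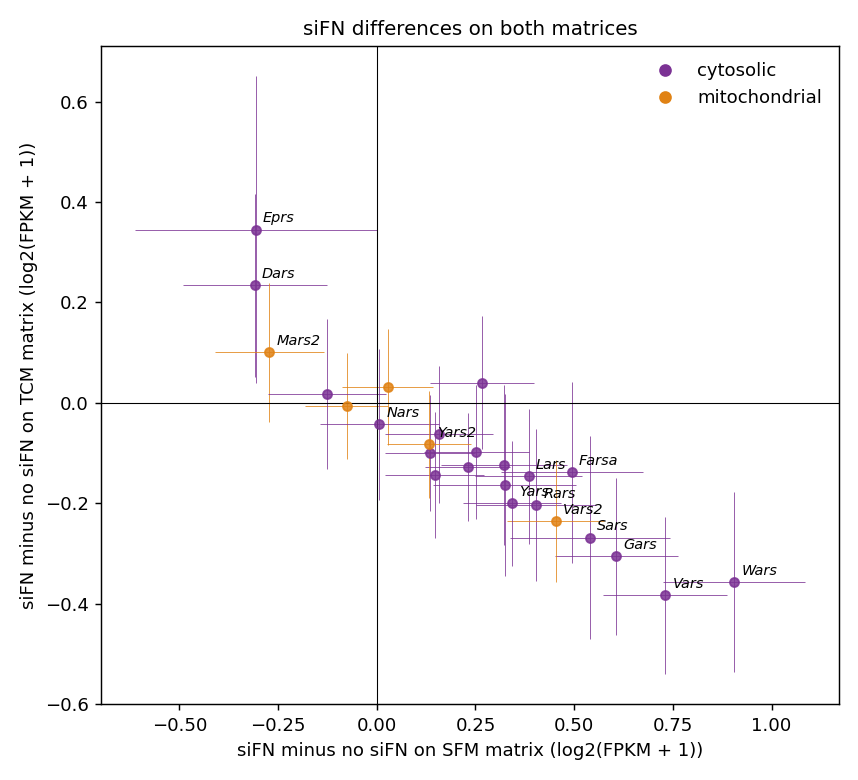
Difference between siFN and no siFN on SFM matrix (x axis) and on TCM matrix (y axis), in log2(FPKM + 1), for the 25 tested members; lines are standard errors of the fit. Wars (0.91, -0.36) and Vars (0.73, -0.38) lie farthest to the lower right, and Eprs (-0.31, 0.35) and Dars (-0.31, 0.23) to the upper left.

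Comparing the matrices where siFN had been given, 4 members were called lower on TCM matrix than on SFM matrix. Of all tested genes, 8.53% were called lower and 16.9% in either direction. The difference was -0.94 ± 0.18 for Wars (limma adjusted p = 0.0297), -0.76 ± 0.16 for Vars (adjusted p = 0.0332), -0.64 ± 0.16 for Gars (adjusted p = 0.0415) and -0.46 ± 0.12 for Vars2 (adjusted p = 0.0480). Gars had 19.9, 18.7, 21.9 and 26.5 FPKM in the TCM siKLF4-siFN, siFN, siKLF4 and siNT libraries, and 31.1, 30.3, 20.3 and 19.4 FPKM in the SFM libraries. Vars2, which charges valine in mitochondria, had 1.15, 1.29, 1.44 and 1.78 FPKM on TCM matrix and 2.24, 1.89, 1.24 and 1.22 FPKM on SFM matrix. In both genes the 2 TCM libraries with siFN lay below the 2 SFM libraries with siFN. With the close TCM libraries averaged, 0 genes were called by limma (1609 with an unadjusted p under 0.05), and the adjusted p of these 4 members ran between 0.142 for Wars and 0.169 for Vars2. No member was called without SFM siKLF4-siFN or without either of the close TCM libraries. Wars alone was called without SFM siNT (3.72% of all tested genes called lower) or SFM siKLF4 (3.77%). Vars and Wars were called without TCM siNT (5.33% of all tested genes called lower) or TCM siKLF4 (5.32%). Without SFM siFN 9 members were called, 6 lower and 3 higher, where 14.8% of all tested genes were called lower and 17.6% higher.

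Where no siFN had been given, 0 of 6917 genes differed between the matrices by limma, and 627 had an unadjusted p under 0.05, among them Sars and Rars. Of the cytosolic members 18 of 20 were above 0, with a median of 0.26, against 0.03 over all tested genes. Sars had the largest estimate of the members at 0.56 ± 0.20 (limma adjusted p = 0.542). In the single pair of siNT libraries, with no replicate check, Sars was the 1 of 25 members past 1.5-fold on the FPKM + 1 scale, higher in TCM siNT (45.5 FPKM) than in SFM siNT (27.9 FPKM), where 3.46% of all tested genes were past it upward and 7.60% downward.

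siKLF4 was followed in its own term. By limma, 0 of 6917 genes were called, 180 had an unadjusted p under 0.05 and none of these was a member, and 11 of 20 cytosolic members lay above 0. The tests of whether siKLF4 acted alike on both matrices and with or without siFN called 0 genes each by limma, with 201 and 184 genes at an unadjusted p under 0.05, none of them members. In the single pairs, 0 of 25 members were past 1.5-fold for siKLF4 against siNT on either matrix. Of all tested genes, 1.66% were past it upward and 2.20% downward on SFM matrix, and 5.15% upward and 1.5% downward on TCM matrix. Wars on TCM matrix fell just short of that limit, at -0.56 in log2(FPKM + 1) with siKLF4 alone (5.37 against 8.41 FPKM). Against the same siNT library, Wars had -0.61 with siFN alone and -0.67 with both siRNAs. The drop of Wars on TCM matrix was thus not confined to the siFN libraries.

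The single pairs against siNT also showed how unequal the siFN libraries on SFM matrix were. SFM siKLF4-siFN was past 1.5-fold above SFM siNT for 6 members (Aars, Farsa, Gars, Sars, Vars and Wars) and below it for Eprs, with 9.87% of all tested genes past it upward and 16.2% downward. SFM siFN was past it for Gars and Wars, both higher, with 4.51% of all genes past it upward and 8.43% downward. On TCM matrix Wars was the only member past it, lower in TCM siKLF4-siFN (4.93 FPKM) and in TCM siFN (5.17 FPKM) than in TCM siNT (8.41 FPKM), where 2.75% of all genes were past it downward in each pair, and 5.81% and 5.86% upward.

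Several members did not share the pattern of Wars and Vars; they were singled out after their values were seen. Eprs, a single protein that charges glutamic acid and proline, had 9.90, 9.66, 6.66 and 8.41 FPKM in the TCM siKLF4-siFN, siFN, siKLF4 and siNT libraries and 4.32, 10.2, 9.55 and 7.64 FPKM in the SFM libraries. Dars, the aspartic acid enzyme, had 2.57, 2.53, 1.94 and 2.09 FPKM on TCM matrix and 1.18, 2.25, 2.46 and 2.14 FPKM on SFM matrix. Both were lowest in SFM siKLF4-siFN, and on SFM matrix the libraries with and without siFN overlapped. The interaction estimates of Eprs and Dars, 0.65 ± 0.43 and 0.54 ± 0.26, were not called (limma adjusted p = 0.319 and 0.185). Tars and Nars, the threonine and asparagine enzymes, were also lowest in SFM siKLF4-siFN, at 10.8 and 28.6 FPKM. Their libraries with and without siFN overlapped on both matrices, and their interactions (0.14 and -0.049) were not called.

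Among the groupings of the cytosolic members, the 13 genes known from mammalian cells to be induced through ATF4 had a median interaction of -0.49, with 11 below 0 and 2 called, against -0.36, 6 of 7 below 0 and 0 called for the other cytosolic members. The 8 enzymes of the multisynthetase complex, a particle that holds several synthetases together, had a median of -0.29, with 6 below 0 and 0 called. The 12 enzymes outside it had a median of -0.51, with 11 below 0 and 2 called. All 9 class I enzymes, whose catalytic domain has the Rossmann fold, were below 0 with a median of -0.53, and 8 of 10 class II enzymes were below 0 with a median of -0.35. Eprs, which holds a domain of each class and had 0.65, was counted in neither. No difference between these groupings was tested.

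Yars had 3.40, 3.28, 4.08 and 3.90 FPKM in the TCM siKLF4-siFN, siFN, siKLF4 and siNT libraries and 4.85, 3.97, 3.21 and 3.30 FPKM in the SFM libraries. Its libraries with and without siFN did not overlap on either matrix, in the same directions as Wars. Rars, the arginine enzyme, had an interaction of -0.61, Sars -0.81, Lars, the leucine enzyme, -0.53 and Farsa, the alpha subunit of the phenylalanine enzyme, -0.63, and none of these 4 was called.

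The mitochondrial enzymes differed among themselves. Mars2, which charges methionine, had 1.15, 1.44, 1.24 and 1.04 FPKM on TCM matrix and 0.769, 1.04, 1.47 and 1.14 FPKM on SFM matrix in the same order of siRNAs. Yars2, the mitochondrial tyrosine enzyme, had 1.25, 1.23, 1.23 and 1.53 FPKM on TCM matrix and 1.72, 1.96, 1.52 and 1.65 FPKM on SFM matrix. On SFM matrix the siFN libraries were the lower ones for Mars2 and the higher ones for Yars2, and neither interaction was called (0.37 ± 0.20 and -0.22 ± 0.15). Tars2, the mitochondrial threonine enzyme, was below the 1 FPKM filter and was singled out after its values were seen; it had 0.757, 0.733, 0.840 and 1.02 FPKM on TCM matrix and 1.47, 1.47, 0.730 and 0.790 FPKM on SFM matrix. Both SFM libraries with siFN stood above all other libraries. Tested among the 9043 genes with a mean of at least 0.5 FPKM, its siFN difference on SFM matrix was 0.49 ± 0.09 (limma adjusted p = 0.0468), where 2.08% of genes were called higher. With siFN its difference between TCM and SFM matrix was -0.50 ± 0.09 (adjusted p = 0.0358), where 5.32% were called lower, and its interaction was -0.63 ± 0.13 (adjusted p = 0.0506). Its approximate reads per library, 27.3 to 99.9, carry a counting error of 10% to 19.1%, and the 2 calls held in 3 of the 8 fits that left out 1 library. Both were lost without SFM siKLF4-siFN (adjusted p = 0.174 and 0.144), and also without SFM siKLF4, SFM siNT or either of the close TCM libraries.

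Genes that work beside the synthetases were read from fixed lists. The scaffolds of the multisynthetase complex, Aimp1, Aimp2 and Eef1e1, had 0 of 3 called in the interaction, and Aimp2 stood nearest at -0.63 ± 0.16 (limma adjusted p = 0.0597). Of 4 tested genes that edit or release aminoacyl-tRNA, 0 were called, with Ptrh2, a peptidyl-tRNA hydrolase, at -0.80 (adjusted p = 0.0640). Of 3 tested genes of tRNA maturation and export 0 were called, among them Elac2, which trims tRNA 3′ ends, at -0.62, Xpot, the tRNA exporter, at -0.65 and, on the other side of 0, Trnt1, which adds the CCA end to tRNA, at 1.13 (adjusted p = 0.138). Of 5 cytosolic elongation factors 0 were called, with Eef2, the translocation factor, at -1.01 (adjusted p = 0.0549), and of 2 tested mitochondrial ones 0 were called. Of the mitochondrial glutaminyl-tRNA route genes Qrsl1, Gatb and Gatc, only Gatc passed the filter, and it was not called. Where siFN had been given, 3 genes of these lists were called lower on TCM matrix than on SFM matrix, against 8.53% of all tested genes. They were Aimp2 at -0.41 (limma adjusted p = 0.0499), Ptrh2 at -0.71 (adjusted p = 0.0338) and Elac2 at -0.40 (adjusted p = 0.0471), and with the close TCM libraries averaged no gene was called by limma (1609 with an unadjusted p under 0.05).

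The amino acid response list, genes known to answer lack of amino acids, had 2 of 14 tested genes called in the interaction, both lower. Its median was -0.59, and 3.34% of all tested genes were called lower. The 2 were Trib3, a pseudokinase induced by ATF4, at -1.39 ± 0.23 (limma adjusted p = 0.0385) and Slc3a2, the heavy chain of amino acid transporters, at -1.13 ± 0.24 (adjusted p = 0.0444). Where siFN had been given, 6 of the 14 were called lower on TCM matrix than on SFM matrix, against 8.53% of all tested genes. By sign, 11 of the 14 lay below 0 there, as did 51.1% of all tested genes. Atf4 itself had an interaction of -0.40 (adjusted p = 0.236). With the close TCM libraries averaged, no gene of the table was called.

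**Figure D4:**
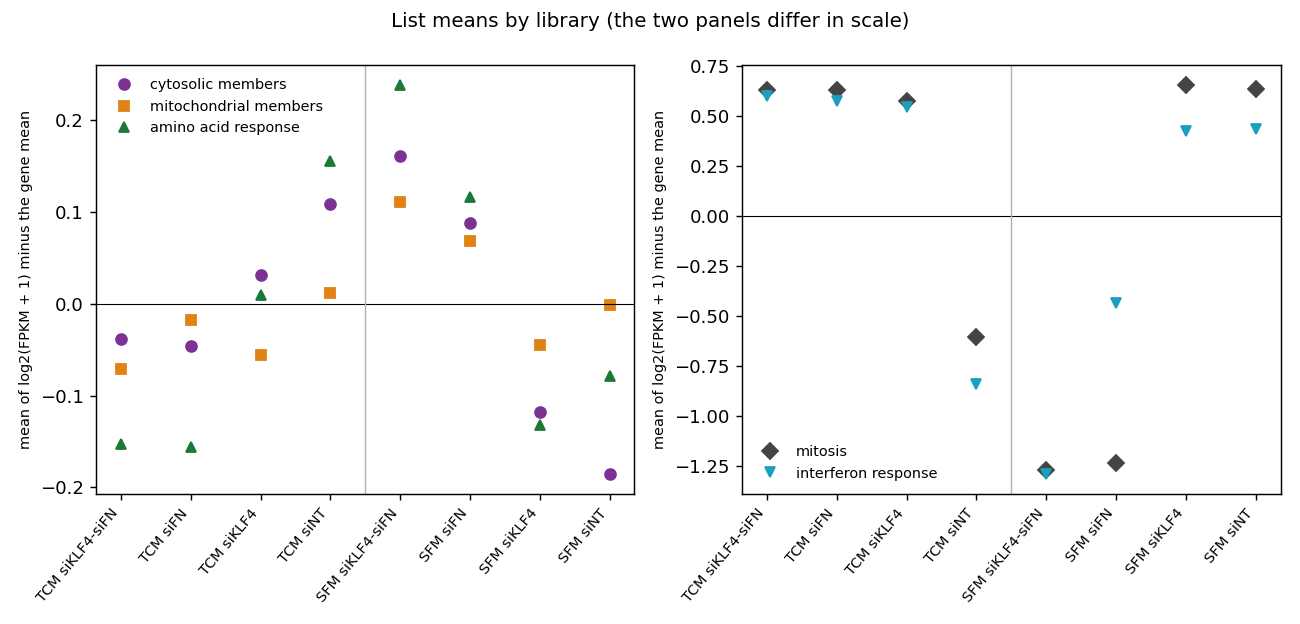
Mean over each gene list of log2(FPKM + 1) minus the gene's own mean, by library; the panels have different y scales. Cytosolic members, mitochondrial members and the amino acid response list are highest in TCM siNT, SFM siKLF4-siFN and SFM siFN. In that order the cytosolic members have 0.11, 0.16 and 0.088 and the mitochondrial members 0.012, 0.11 and 0.068. The mitosis list is low there (-0.61, -1.27 and -1.24). In TCM siKLF4 the cytosolic members and the amino acid response list are also above 0 (0.031 and 0.0099). The mitochondrial members are below 0 in that library (-0.056), and the mitosis list is high (0.57).

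Other features of the libraries moved with these results. The mitosis list had 12 of 12 tested genes called higher in the interaction, against 3.83% of all tested genes, with a median of 2.31. Its library mean was -0.61 in TCM siNT, -1.27 in SFM siKLF4-siFN and -1.24 in SFM siFN, and 0.57 to 0.65 in the other 5. The interferon list had 2 of 5 called higher (Ifit2 and B2m), against the same 3.83%. Its means were -0.84, -1.29 and -0.44 in the same 3 libraries. The part of these features in the synthetase values was not tested.

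GC content of the transcripts also moved with the members' levels. Across the 25 tested members, the correlation (Pearson's r) between a gene's value relative to its own mean and its GC content was 0.75 in SFM siKLF4-siFN and -0.74 in SFM siKLF4, against 0.53 and -0.41 over 6563 genes. Over the members it was -0.53 in TCM siKLF4-siFN, -0.59 in TCM siFN, 0.25 in TCM siKLF4, 0.22 in TCM siNT and -0.55 in SFM siNT, against -0.38, -0.34, 0.20, 0.13 and -0.23 over all genes. In SFM siFN it was 0.09 over the members and 0.02 over all genes. These points share a library and are described without a test. Vars has 60.9% GC, Vars2 58.6%, Wars 53.6%, Gars 50.3%, Eprs 47.2%, Dars 41.2% and Mars2 38.8%, and the median of all tested genes with a value is 50.9%.

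With GC content regressed out within each library, an alternative chosen after seeing the data, 0 members were called in the interaction by limma, although 451 of 6563 genes were (2147 with an unadjusted p under 0.05). Wars was then at -1.07 (adjusted p = 0.0537) and Vars at -0.78 (adjusted p = 0.0522). Both were still called for siFN on SFM matrix, where 4.22% of genes were called higher. Where siFN had been given, Wars, Vars, Gars, Farsb and Yars2 were called lower on TCM matrix, where 9.81% of genes were, and Vars2 was not called (-0.28, adjusted p = 0.108). Of the cytosolic members 19 of 20 and of the mitochondrial members 5 of 5 then lay below 0 in the interaction, as did 3541 of all 6563 genes. The medians were -0.29 for the cytosolic and -0.38 for the mitochondrial members, against -0.04 over all genes. In the main fit these member medians were -0.40 and 0.00, so that contrast between the compartments did not hold here.

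**Figure D5:**
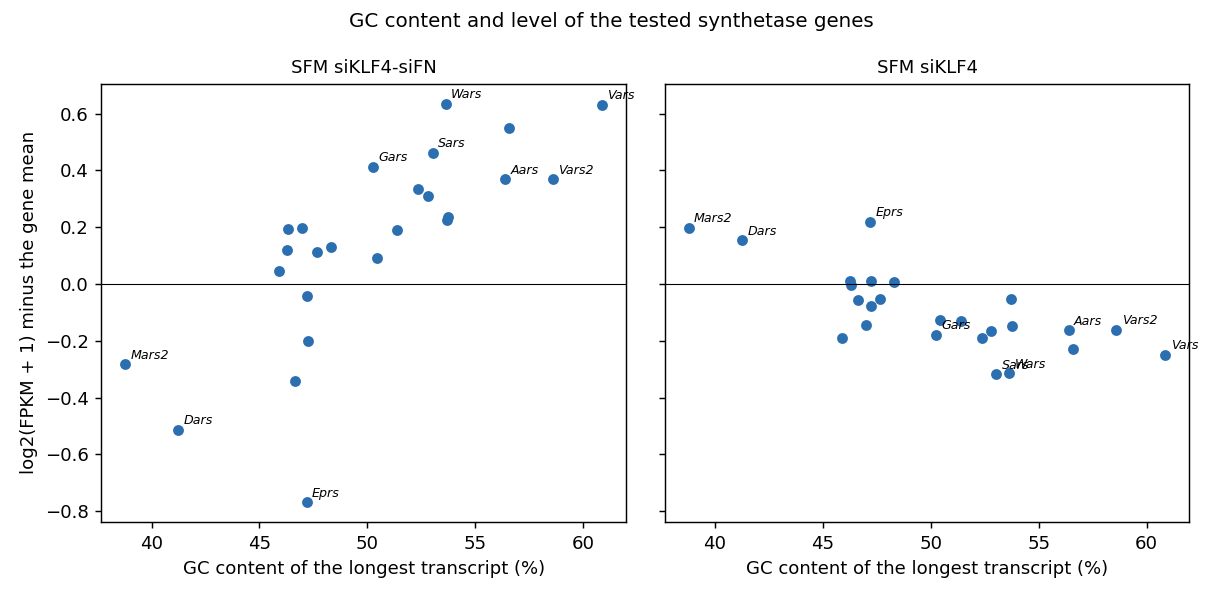
Level of each tested member relative to its own mean, in log2(FPKM + 1), against the GC content of its longest transcript, in SFM siKLF4-siFN (left) and SFM siKLF4 (right), 1 point per gene. Levels run upward with GC content on the left (r = 0.75) and downward on the right (r = -0.74), and Wars and Eprs lie off the trend on the left.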

How the data were processed

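RNA of 8 libraries was sequenced, 1 per condition, and the authors deposited FPKM values, 46477 rows by gene symbol. The tools named per the submitters' processing notes are STAR 2.4.1d and Partek, with build mm10. How reads were counted, on which annotation and strand, is not given in the sources used here. Groups come from the titles. The members, the lists and the medium by siFN contrast were chosen with earlier results of these data known.

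From the FPKM, log2(FPKM + 1) was tested with limma 3.58.1 (R 4.3.3, variance trend, two-sided, Benjamini-Hochberg at 0.05) over the 6917 genes with a mean of at least 1 FPKM. The model held medium, siKLF4, siFN and medium by siFN (3 residual degrees of freedom), and the other interactions were added singly (2). The procedure was tested on simulated data with independent noise. These held no near-duplicate libraries, siKLF4 interactions or GC trend, so the simulation cannot speak to those features. Because 1 is added, folds of genes with low FPKM are understated. Members called in a comparison are named with 8 values, as are the 4 of each compartment with the smallest interaction p. So are the highest and lowest of each, except the lowest mitochondrial one, which is under 0.5 FPKM and given by its range. Eprs and Dars, singled out after their values were seen, are also given with 8 values. The alternatives were the pseudocount, filters, scalings, no trend, each library left out, the close TCM pair averaged, a 2-fold limit for single pairs and an additive model for siKLF4. Coordinates, lengths and GC content are from GENCODE M21 on GRCm38, the assembly of mm10, and promoters from RefSeq on GRCm38.p6. Depths were worked out from FPKM steps, with 28.0% to 33.0% of low values within 0.05 of a whole read; they are approximate, and no count test was run. Values of some list genes are not reported here. Counting errors leave out variation between cultures.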

Additional observations from a re-analysis of the deposited data

Results flagged for a closer look

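Wars was marked because the siFN difference was -0.36 on TCM matrix and 0.91 on SFM matrix, and the test of the difference between those differences, the medium by siFN term in limma, gave -1.26 (adjusted p = 0.0432). Vars was marked for the same reason, with siFN differences of -0.38 on TCM matrix and 0.73 on SFM matrix and an interaction of -1.11 (limma adjusted p = 0.0432). With the TCM siKLF4-siFN and TCM siFN libraries averaged into 1 sample, neither passed (adjusted p = 0.130 for Wars and 0.123 for Vars).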

How the results depend on the processing

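No paired analysis was possible because each condition had 1 library and the labels carry no replicate numbers that join samples. Counts of members called are given for the interaction (2), siFN on SFM matrix (2) and TCM minus SFM with siFN (4). With a pseudocount of 0.1 the first and second became 0. With no filter, and with the close TCM pair averaged, all became 0. A mean of at least 0.5 FPKM left 1 (Vars) in the interaction, and regressing out GC content, chosen after seeing the data, left 0. Leaving out 1 library at a time gave 0 to 11, 0 to 10 and 0 to 9. The cause of these changes was not tested. A mean of at least 5 FPKM, both scalings and the fit without a trend stayed within 1.5 times of each count. The other limma comparisons had 0 members under every alternative run.

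With GC content regressed out, signs turned for Mars2, Iars2 and Dars in the interaction (-0.54, -0.064 and -0.11), for siFN on SFM matrix (0.34, 0.030 and 0.13) and for TCM minus SFM with siFN (-0.32, -0.014 and -0.025). Tars (-0.031) and Hars2 (-0.099) also turned in the interaction, Tars (0.0070) for siFN on SFM matrix, and Aars (0.028) and Mars (0.0019) for TCM minus SFM with siFN. Leaving out 1 library gave Eprs -0.85 to 0.24 for siFN on SFM matrix, above 0 without SFM siKLF4 (0.061) or SFM siKLF4-siFN. For TCM minus SFM with siFN it gave Eprs -0.061 to 1.02 and Sars -0.54 to 0.054, each turning without SFM siKLF4-siFN. In the other comparisons small values turned as well. None of the turned values was called.

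A 2-fold limit left 0 members in each single pair. With a pseudocount of 0.1, members past 1.5-fold against siNT numbered 2 in TCM siKLF4-siFN, 1 in TCM siKLF4 and 5 in SFM siFN, and TCM siNT had 3 against SFM siNT. With equal medians these were 1 in TCM siKLF4, 4 in SFM siFN and 3 in TCM siNT. With 3 residual degrees of freedom and 1 library per condition, modest differences may be missed.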
